A study of Tribolium castaneum with 17 samples.

Results

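The male carcass of the red flour beetle, *Tribolium castaneum*, was compared with the female carcass, a carcass being the adult body without its gonads. Of the 17 libraries of the study, 6 belong to this comparison, with 3 of male carcass lacking testis (S10, S11 and S12) and 3 of female carcass lacking ovary (S7, S8 and S9). All beetles were wild type of the strain GA2, were sexed as pupae and dissected 4 days after eclosion, and 30 beetles were pooled per adult library. Embryos of 0-5 hr and 6-11 hr, testis (S16, S17) and ovary (S13, S14, S15) were also sequenced. All 12302 gene models of the table were taken up, and the 12152 that reached 5 CPM (reads of a gene model scaled by the size of the library) in at least 3 of the 17 libraries were compared, while 150 were not tested. By the call described next, testis exceeded male carcass in 3344 of the 12152 genes (27.5%), which were kept apart from the 8808 that were not, of which 3669 (30.2% of all genes) were lower in testis.

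An insect carcass holds muscle, cuticle, gut, nervous tissue and fat body. The fat body is the organ that in females of many insects makes the yolk proteins taken up by the oocytes. The male reproductive tract also has ducts and accessory glands, which secrete the fluid and proteins that are passed on with the sperm. Whether these glands and ducts were left in the carcass or taken out with the testis is not given in the sources used here. Testis cells make many transcripts found in few other tissues, among them the beta 2-tubulin of the sperm tail. A pooled tissue gives the sum over its cells, so fewer cells of a type and less RNA per cell cannot be told apart. A gene was called at a difference of 2-fold or more, that is 1 on the log2(CPM + 1) scale, with an adjusted p under 0.01 (limma, Benjamini-Hochberg). Few gene models carry a name in the sources, so most are given by their identifier alone.

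Reads in gene models ran from 19416253 to 22932047 in male carcass and from 23061585 to 25947448 in female carcass. At this depth 1 read was worth 0.0487 to 0.0595 CPM. Both carcasses held their somatic markers. The homolog of fly flightin (TC010476), a protein of flight muscle thick filaments, had 917, 951 and 929 CPM in male carcass and 812, 743 and 850 CPM in female carcass, with 7.65 and 13.8 CPM in testis. The homolog of fly henna (TC000087), an enzyme of pteridine eye pigment synthesis, had 185, 106 and 249.8 CPM in male carcass and 259, 256 and 252 CPM in female carcass. The log2 differences of male minus female carcass were 0.22 and -0.59, and neither gene was called (adjusted p = 0.764 and 0.0755, limma). Gonad transcripts were read as markers too, over 663 genes called between the gonads with testis 16 times ovary or more and 81 genes with ovary 16 times testis or more.

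The testis markers separated the sexes. Their median level was 2.42% of the testis mean in S10, 5.95% in S11 and 4.77% in S12, against 0.380% in S7, 0.274% in S8 and 0.274% in S9. Summed over the list, male carcass had 20881 to 76839 CPM and female carcass 8055 to 16780 CPM. The list includes 37 genes called higher in male than in female carcass but in neither direction between testis and male carcass. In S11, which had the sum of 76839 CPM, TC011481 and TC006088, 2 of these 37, made up 11244 CPM. Of the 663 markers, 510 were called higher in male carcass, 0 lower (by limma, at an unadjusted p under 0.05 too, and by the edgeR and DESeq2 tests) and 153 were not called, with a median log2 difference of 2.37, where the median of all genes was -0.09. Among all genes, 5.13% were called higher and 0.0658% lower (limma). No male library had a marker at 0 reads, nor had female library S7, while 14 were at 0 in S8 and 12 in S9. The ovary markers were uneven among the female libraries. Their median level was 1.84%, 1.73% and 1.19% of the ovary mean in S10, S11 and S12, against 8.76% in S7, 1.78% in S8 and 1.54% in S9, so S7 stood apart by this measure. Summed over the list, S10, S11 and S12 had 3135, 3075 and 2655 CPM, against 3922 CPM in S7, 3939 CPM in S8 and 2562 CPM in S9, so by the sum S8 was as high as S7. Of the 81 ovary markers, limma called 0 in either direction, with a median log2 difference of -0.54. With 0.0658% of all genes called lower, a list of 81 genes is too short to show a lack of such calls. At an unadjusted p under 0.05 (limma), 16 were lower and 0 higher in male carcass, where 2103 and 1004 of all genes were. By edgeR's quasi-likelihood test 1 was called lower, and 8 each by its likelihood ratio test and DESeq2. Among all genes these tests called 10, 37 and 33 lower. How much of the differences below comes with these gonad transcripts was not tested, and the values with the testis share taken off are given beside the counts they move.

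**Figure D1:**
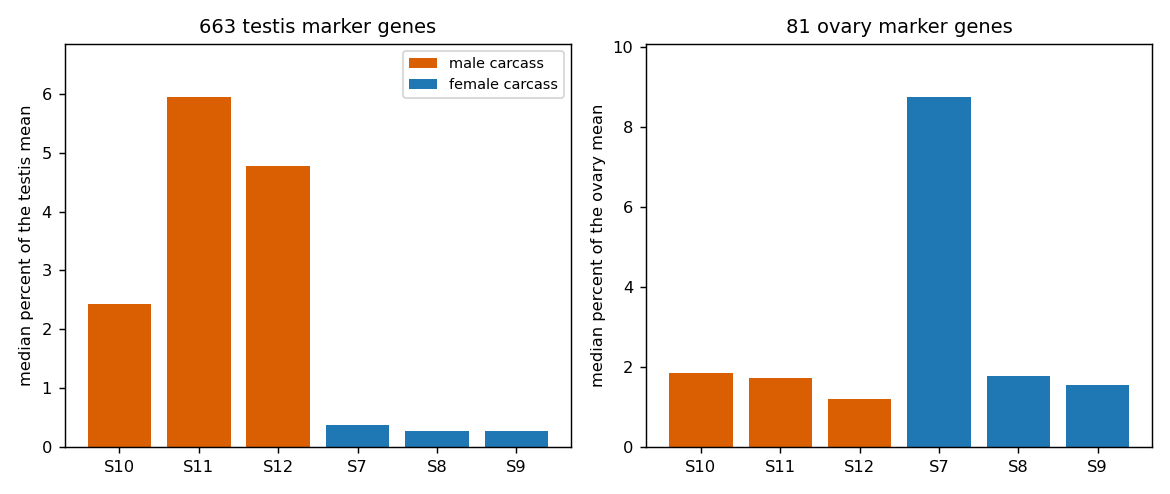
Median level of the 663 testis marker genes as a percent of the testis mean (left) and of the 81 ovary marker genes as a percent of the ovary mean (right), a bar for each carcass library. Male libraries reached 2.42% to 5.95% of the testis level and female libraries 0.274% to 0.380%, while S7 alone reached 8.76% of the ovary level.

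Most genes called between the carcasses were higher in males. Of the 12152 genes, 623 (5.13%) were higher in male than in female carcass and 8 (0.0658%) were lower, so that 98.7% of the calls were of genes higher in males. With the testis share taken off the numbers were 155 higher and 75 lower, and without S10 they were 685 higher and 64 lower. The subtraction takes more off the male than off the female libraries, so the counts after it describe that step and test nothing. The called differences were often large, with 158 genes at a log2 difference of 4 or more. In 622 of the 623 genes every male library lay above every female library, as in 9.77% of all genes, and this largely follows from the call. For most other genes the sexes were close, since the 95% interval of the difference lay wholly inside 2-fold for 9112 genes, or 74.98%. At an adjusted p under 0.01 with no minimum difference, 655 genes were higher and 65 were lower in males, and 57 of the 65 differed by under 2-fold.

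Small differences ran the other way and depended on the scaling. Every male library lay below every female library in 3103 genes (25.5%), with a median log2 difference of -0.38, and above every female library in 1187 genes (9.77%). With library totals in place of the TMM factors the numbers turned round, with 1088 genes below and 2662 above. The median difference of all genes was -0.09 on the log2 scale with the deposited scaling and 0.06 with library totals. No direction is therefore read from differences of this size. The called genes kept their imbalance, with 650 higher and 4 lower under library totals.

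Genes higher in male carcass were most frequent among those higher in testis. Of the 3344 genes higher in testis than in male carcass, 515 (15.4%) were higher in male than in female carcass and 2 were lower. Of the 5139 genes called in neither direction between testis and male carcass, 93 (1.81%) were higher and 2 lower. Of the 3669 genes lower in testis than in male carcass, 15 (0.409%) were higher and 4 lower. Put together, 108 of the 8808 genes not higher in testis (1.23%) were higher in male carcass. Both contrasts use the male carcass libraries, so the shares of the groups describe the split and test nothing. Of the 158 genes at a log2 difference of 4 or more, 72 were not higher in testis.

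**Figure D2:**
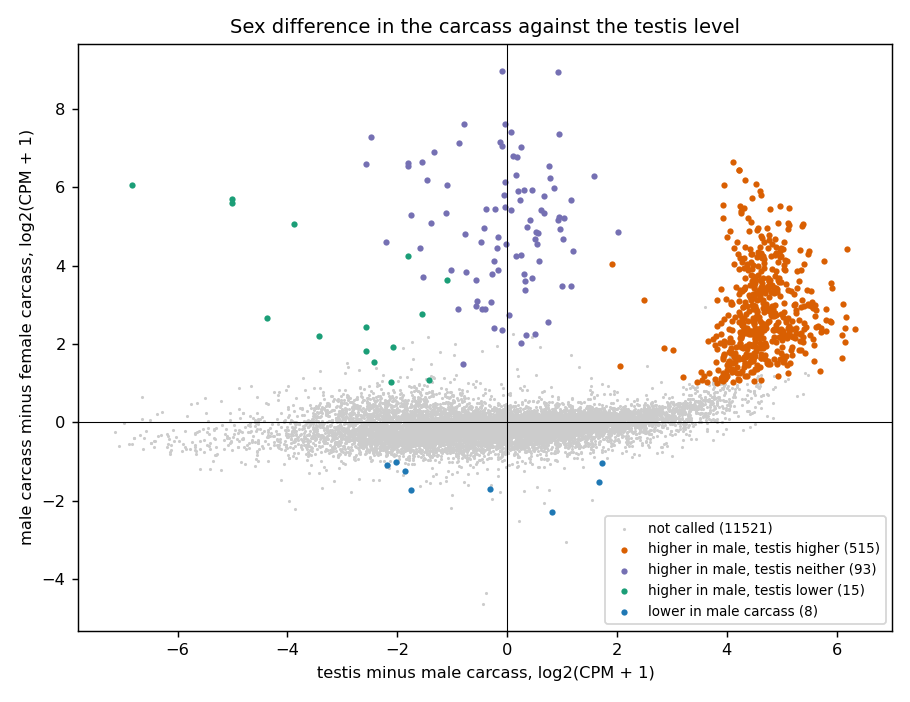
Each point is one of the 12152 genes, with the log2 difference of testis minus male carcass on the horizontal axis and that of male minus female carcass on the vertical axis. The 515 called genes higher in testis lie to the right, the 93 called in neither direction reach the highest values near the middle, the 15 lower in testis lie to the left, and the 8 called lower genes lie below 0.

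At the edge of the split the groups ran into each other. TC006453 and TC034627, with testis above male carcass by 1.90 and 2.05 on the log2 scale, were called higher in testis. TC033966 and TC001011, with testis above by 1.58 and 2.01, were not, their adjusted p in that contrast being 0.197 and 0.0570 (limma). TC033966 had 36.4, 481 and 58.8 CPM in S10, S11 and S12, and TC001011 had 11.7, 142 and 18.3 CPM, so S11 stood far above the other male libraries in both.

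The 515 genes higher in testis shared one pattern across the libraries. Their median level was 7.30, 18.3 and 14.1 CPM in S10, S11 and S12, against 1.20, 0.646 and 0.735 CPM in S7, S8 and S9, and 432 and 285 CPM in testis. The male mean was a median of 4.02% of the testis mean (quartiles 3.06% and 4.99%), and the median log2 difference between the sexes was 2.58 (1.01 to 6.64). S10 was the lowest male library in 512 of the 515 genes and S11 the highest in 477. S10, S12 and S11 are also in this order in the testis marker shares, and 473 of the 515 genes are themselves testis markers. Between the gonads, 514 of the 515 were called higher in testis than in ovary, where 2687 of all genes (22.1%) were. Since the split and this call use the same testis libraries, the count follows in large part from the split. Together the 515 genes took 0.642%, 1.64% and 1.25% of the reads in S10, S11 and S12, against 0.0996%, 0.0714% and 0.0754% in S7, S8 and S9, and 29.8% and 25.5% in testis. When each carcass library's testis share was taken off as that percent of the testis mean, 53 of the 515 genes were still called. The share is a median over markers that include 473 of these genes, so this number describes the subtraction and tests nothing. Of the 515, 226 reached the expression minimum without any male carcass library, and the other 289 passed it only with them.

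The gene with the largest difference in this group was TC006027, with 225, 642 and 454 CPM in male carcass and 7.504, 1.29 and 2.41 CPM in female carcass (log2 difference 6.64, standard error 0.57, adjusted p = 1.27e-06, limma). Testis had 7154 and 6899 CPM. All male libraries lay far above the female ones, and S7 was the highest female library, as it was in 381 of the 515 genes. TC001175 had 282, 729 and 592 CPM in male carcass and 10.4, 2.38 and 3.67 CPM in female carcass, with 9030 and 9480 CPM in testis. TC010260 had 105, 269.9 and 210.0 CPM in male carcass and 2.56, 0.397 and 0.840 CPM in female carcass. In these genes too the order among males was S10, S12, S11 from low to high. The next in size among genes with non-overlapping sexes were TC008268, TC006316, TC007207, TC016377, TC014768 and TC002761, with log2 differences from 6.08 to 5.56. With the testis share taken off, 3 of these 6 lost their call, TC008268 at 2.36 (adjusted p = 0.128, limma), TC007207 at 1.64 (adjusted p = 0.309, limma) and TC016377 at 0.99 (adjusted p = 0.362, limma). All 6 are themselves testis markers, so which of them kept a call describes the subtraction and tests nothing.

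Among the 10 largest was TC009035, the homolog of fly beta-Tub85D, which in *Drosophila* is the beta-tubulin of the testis and builds the sperm axoneme. It had 124, 329 and 282 CPM in male carcass and 3.75, 1.24 and 1.78 CPM in female carcass, with 4791 and 4347 CPM in testis (log2 difference between the sexes 6.20, standard error 0.46, adjusted p = 3.16e-07, limma). The other beta-tubulin homologs were not called between the carcasses. TC009589 had 1076, 795 and 960.3 CPM in male carcass and 1051, 1380 and 1084 CPM in female carcass, and TC034766 and TC010829 likewise overlapped between the sexes. The 95% interval of the difference lay inside 2-fold for each of these 3 genes.

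Of the other genes the study names, 3 were called, from testis Rad50 and TC032055 and from the maternal genes TC002055. Rad50 (TC006703), part of the complex that repairs DNA double-strand breaks, had 21.5, 59.7 and 42.8 CPM in male carcass and 1.85, 0.497 and 0.682 CPM in female carcass, with 1060 and 804.5 CPM in testis. The difference between the sexes was 4.34 in log2 (standard error 0.30, adjusted p = 2.10e-07, limma). TC032055, homolog of a fly gene with a domain of unknown function, had 11.2, 31.5 and 18.6 CPM in male carcass and 1.69, 1.44 and 1.16 CPM in female carcass. TC002055, homolog of a fly maternal gene, had 7.40, 27.7 and 19.1 CPM in male carcass and 2.88, 2.43 and 1.57 CPM in female carcass, with 720.7 and 400.0 CPM in testis. With the testis share taken off, 3 of these 4 genes lost their call, Rad50 with a log2 difference of 0.79 (adjusted p = 0.238, limma), TC032055 with 0 (adjusted p = 1, limma) and TC002055 with -0.60 (adjusted p = 0.112, limma), while TC009035 was still called (5.25, adjusted p = 1.62e-05, limma). All 4 are among the testis markers whose median sets the share, so which of them kept a call describes the subtraction and tests nothing. The male mean was 5.37% of the testis mean in TC009035, against 4.43% in Rad50, 3.22% in TC002055 and 2.07% in TC032055. Of the 22 genes the study names by identifier, these 4 were higher in male carcass, 0 were lower and 18 were not called, 9 of the 18 with an interval inside 2-fold. The edgeR and DESeq2 tests gave the same numbers, and 8 of the 22 were lower at an unadjusted p under 0.05 (limma).

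The 93 genes called in neither direction between testis and male carcass had the largest sex differences, and 1 library carried most of their level. Their median was 21.8, 205.5 and 38.8 CPM in S10, S11 and S12, against 0.598, 0.298 and 0.262 CPM in S7, S8 and S9. The median log2 difference was 5.00 (1.49 to 8.98), against 2.58 in the genes higher in testis. S11 was the highest male library in 91 of the 93 genes, and lay over 3 times above both other male libraries in 80, where it did so in 5 of the 515 genes higher in testis. The median ratio of S11 to S10 was 8.79 and of S11 to S12 was 5.598, against 2.58 and 1.29 in the 515 genes. A high S11 raises the mean and spread of male carcass in the contrast with testis, which makes a call of testis higher less likely. The comparison with the 515 genes is therefore partly made by the split. The sexes still did not overlap in any of the 93, where every male library lay above every female one in 9.77% of all genes. S10 and S12 thus also lay above all female libraries. The 93 genes took 0.452%, 3.28% and 0.629% of the reads in S10, S11 and S12, and 0.0141%, 0.00973% and 0.00932% in S7, S8 and S9. Without S11, 85 of the 93 were still called.

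In the gonads these genes were present as well. Testis had a median of 46.3 and 69.5 CPM in S16 and S17, and the male mean was a median of 145.5% of the testis mean, where it was 4.02% in the genes higher in testis. The split was made on testis against male carcass, so these percents describe the groups and test nothing. S17 was above S16 in 79 of the 93 genes, but in 34 of the 515. Among the ovary libraries S13 stood apart, with a median of 17.8 CPM, against 1.21 CPM in S14 and 1.67 CPM in S15, and it lay over 3 times above both in 61 of the 93. Taken gene by gene, the level in S13 was a median of 7.18% of that in S11. Of the 93 genes, 65 had their highest group mean in male carcass, 21 in testis, 6 in ovary and 1 in embryos of 6-11 hr. Between the gonads 68 of the 93 were called higher in testis than in ovary, where 22.1% of all genes were, and 3 lower. Testis markers made up 37 of the 93, where they are 663 of all 12152 genes. The expression minimum was reached by 76 of the 93 without any male carcass library, and by the other 17 only with them. With the testis share taken off 89 of the 93 were still called, a number that follows from the high male level of these genes relative to testis and is no evidence on where they are expressed. Why S11, S17 and S13 stand above the other libraries of their groups in these genes was not tested.

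**Figure D3:**
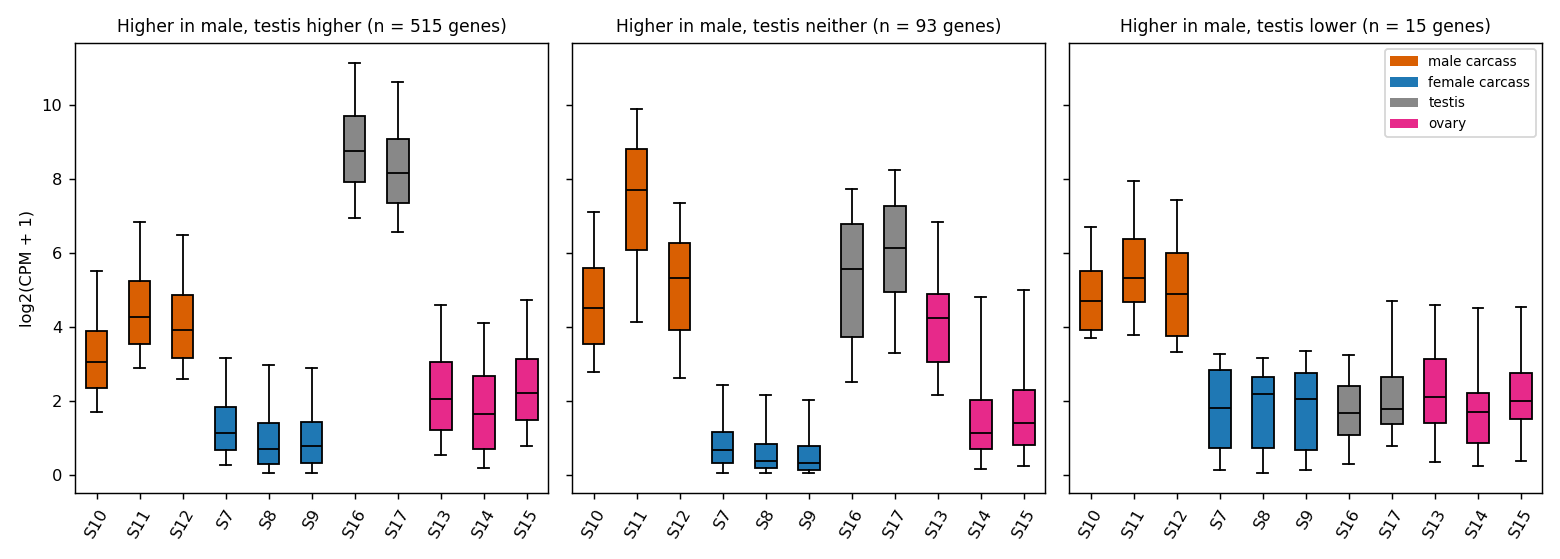
Levels of the called genes by library on the log2(CPM + 1) scale, for the 515 genes higher in testis than in male carcass, the 93 called in neither direction and the 15 lower in testis. Boxes span the quartiles with the median as a line, and whiskers run from the 5th to the 95th percentile. In the middle panel S11 stands above S10 and S12, and ovary library S13 above S14 and S15.

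The largest differences of the whole comparison were in this group. TC011481 had 604, 6766 and 1004 CPM in S10, S11 and S12, against 3.37, 1.44 and 1.99 CPM in S7, S8 and S9, with 1559 and 1455 CPM in testis (log2 difference between the sexes 8.98, standard error 1.32, adjusted p = 2.45e-04, limma). TC006088 had 377, 4478 and 750.2 CPM in male carcass and 3.15, 0.447 and 0.735 CPM in female carcass (8.95, standard error 1.25, adjusted p = 1.58e-04, limma). Both had their highest value in S11 by a wide margin and their lowest male value still over 100 times the highest female one. In ovary, TC011481 had 316 CPM in S13, against 1.71 and 4.2004 CPM in S14 and S15, and TC006088 had 174 CPM, against 1.21 and 3.52 CPM.

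The others among the 10 largest were TC003976, TC031448, TC033969, TC034387, TC002660, TC034060, TC032182 and TC006292, with log2 differences of 7.61 to 7.05. TC033969 had 83.7, 1028 and 172 CPM in male carcass and 1.25, 0.0497 and 0.262 CPM in female carcass. TC002660 had 129, 475.5 and 139 CPM in male carcass and 0.653, 0.298 and 0.0525 CPM in female carcass, with 20.4 and 62.0 CPM in testis, so its testis level lay below every male carcass library without a call (adjusted p = 0.0331, limma). The steep excess of S11 was common to all 10. A few of the 93 genes lacked it, such as TC006863 with 14.02, 10.2 and 9.36 CPM in male carcass and 0.109, 0.0497 and 0.315 CPM in female carcass, and TC034918 with 9.30, 8.45 and 5.22 CPM in male carcass and 0.0544, 0.0993 and 0.105 CPM in female carcass. These 2 genes were picked after their values were seen.

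The genes higher in male carcass than in both female carcass and testis numbered 15. Their median was 24.8, 38.8 and 28.7 CPM in S10, S11 and S12, against 2.50, 3.58 and 3.15 CPM in S7, S8 and S9, and 2.24 and 2.47 CPM in testis. The median log2 difference was 2.67 (1.04 to 6.05). The sexes did not overlap in any of them, as in 9.77% of all genes in this direction. None of the 15 is a testis marker, and 14 had their highest group mean in male carcass and 1 in ovary. With the testis share taken off, 13 of the 15 were still called. These genes were chosen for a testis level below male carcass, so these counts follow in large part from the choice. They are no evidence on where the genes are expressed. S11 lay over 3 times above the other male libraries in 2 of the 15, TC008505 and TC032140. The count itself is unsteady, with 10 without S11, 25 without testis library S17 and 23 without ovary library S13, and 12 of the 15 were still called between the carcasses without S11. Of the 15, 8 passed the expression minimum only with male carcass libraries.

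In 4 genes the excess was steep and shared by all male libraries. TC010151 had 102, 245 and 169.5 CPM in male carcass and 1.69, 1.34 and 1.36 CPM in female carcass, with 0.294 and 0.574 CPM in testis (log2 difference between the sexes 6.05, standard error 0.25, adjusted p = 1.03e-09, limma). TC014982 had 47.6, 62.9 and 64.2 CPM in male carcass and 0.109, 0.199 and 0.105 CPM in female carcass (5.69, standard error 0.25, adjusted p = 1.75e-09, limma). Both genes lay under 2 CPM in the testis and ovary libraries. TC008611 had 43.7, 66.5 and 60.8 CPM in male carcass and 0.326, 0.0497 and 0.157 CPM in female carcass (5.61, standard error 0.21, adjusted p = 3.21e-10, limma). TC015700 had 35.8, 38.8 and 43.2 CPM in male carcass and 0.163, 0.348 and 0.105 CPM in female carcass, with 1.53 and 1.95 CPM in testis (5.06, standard error 0.15, adjusted p = 3.00e-11, limma). In TC015700 the male libraries lay close together, with S10 the lowest.

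TC031618 was the gene of this group with no female read. It had 14.8, 11.2 and 9.06 CPM in S10, S11 and S12, against 0 reads in each female carcass library, which with 3 reads per library as the limit makes it at least 71.8-fold higher in males. Testis had 4.65 and 5.05 CPM, and the ovary libraries lay between 0 and 0.111 CPM. S10, the male library with the lowest testis marker share, had the highest level of this gene. Whether the level of this gene goes with the testis share was not tested. The limit of 71.8-fold covers counting error only.

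The rest of the group had smaller differences. TC008505 had 24.6, 90.0 and 27.5 CPM in male carcass and 1.14, 1.04 and 1.26 CPM in female carcass, and TC032140 had 31.9, 98.0 and 28.7 CPM in male carcass and 5.71, 6.11 and 5.46 CPM in female carcass, both with S11 on top. TC034086 had 45.7, 73.5 and 63.9 CPM in male carcass and 8.54, 7.995 and 9.29 CPM in female carcass. TC008610, next in number to TC008611, had 24.8, 28.2 and 30.8 CPM in male carcass and 4.13, 3.63 and 5.51 CPM in female carcass. TC032756, TC033355, TC011173, TC031243, TC004146 and TC006833 followed with log2 differences from 2.21 down to 1.04. Only TC004146 of the 15 had its highest mean outside male carcass, with 23.0, 21.8 and 22.3 CPM in ovary.

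**Figure D4:**
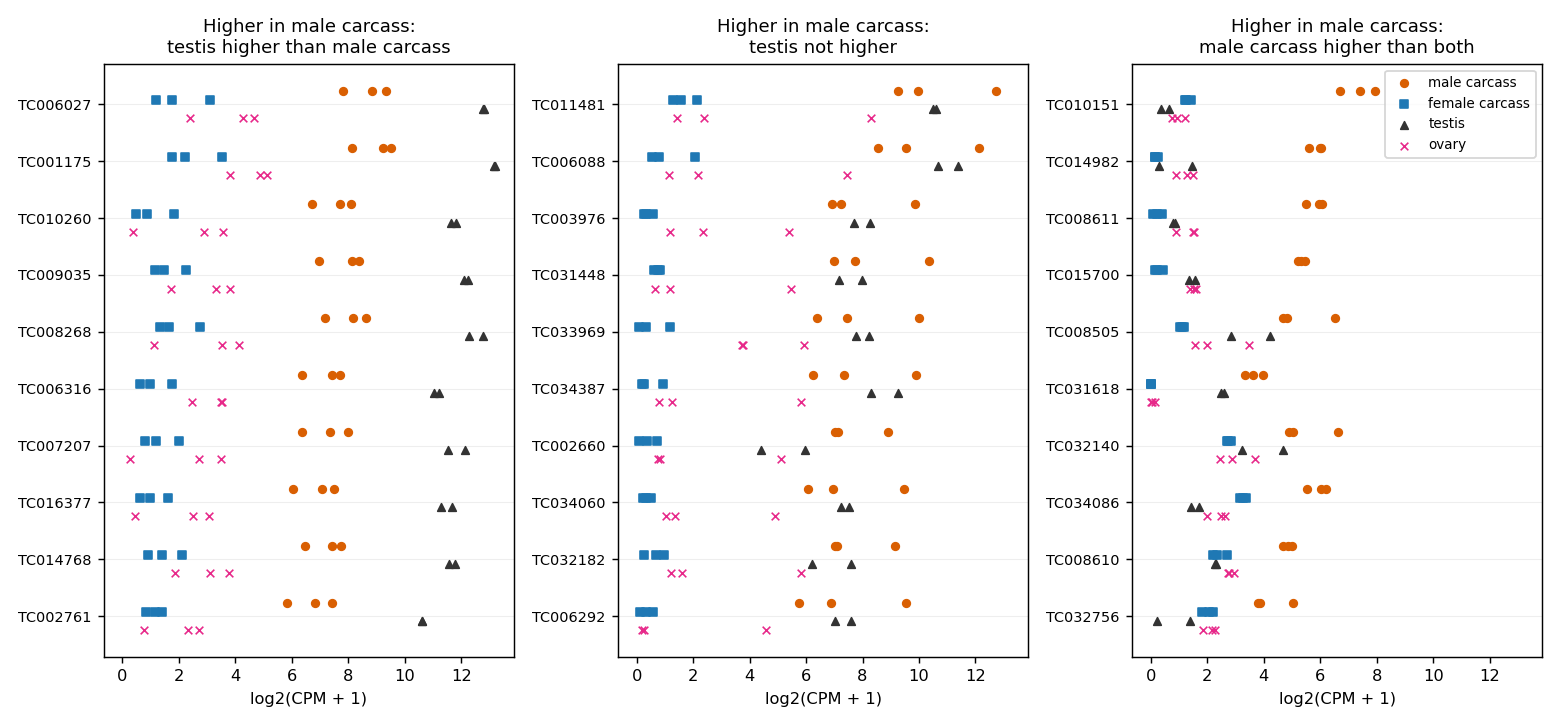
Level of the named higher genes in each library of male carcass, female carcass, testis and ovary on the log2(CPM + 1) scale, 10 genes per panel, a symbol for each library. In the left panel testis lies above male carcass, in the middle panel a single male library lies far above the others, and in the right panel male carcass lies above all other adult groups.

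The difference between the sexes was also set against the difference between the gonads, male minus female carcass less testis minus ovary. Over all genes this contrast was called in 4140 (34.1%). For 28 genes, the 8 lower ones and the 20 named higher ones not higher in testis, it was called in 13. TC010151, TC014982, TC008611 and TC015700 had differences of 6.05 to 5.06 between the carcasses and of -0.45, -0.35, -0.47 and -0.06 between testis and ovary on the log2 scale. These 4 genes were chosen for a male carcass level above female carcass and testis, contrasts that share the male libraries with this one, so their calls are a description. TC011481 and TC006088 had 8.98 and 8.95 between the carcasses and 6.52 and 7.42 between the gonads, and the contrast was not called for them (adjusted p = 0.307 and 0.511, limma).

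The 8 genes lower in male carcass had a median log2 difference of -1.38 (-2.29 to -1.01), while the genes higher in males began at 1.01 and reached 8.98. TC006279 had 7.59, 8.03 and 8.65 CPM in male carcass and 39.6, 47.6 and 43.5 CPM in female carcass (log2 difference -2.29, standard error 0.12, adjusted p = 2.94e-08, limma). In the gonads it had 14.5 and 15.3 CPM in testis and 43.8, 40.1 and 46.6 CPM in ovary, so both female tissues lay above both male ones. TC034350 had 6.62, 4.52 and 2.51 CPM in male carcass and 13.3, 20.01 and 16.3 CPM in female carcass (-1.71, standard error 0.28, adjusted p = 5.03e-04, limma). TC005019 had 3.26, 1.61 and 2.97 CPM in male carcass and 10.4, 14.4 and 7.45 CPM in female carcass (-1.69, standard error 0.27, adjusted p = 3.64e-04, limma). The sexes did not overlap in any of the 8 genes, as in 25.5% of all genes in this direction, and this largely follows from the call. The female levels lay between 7.45 and 79.6 CPM.

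TC015688 and TC013912 were lower in male carcass but not in testis. TC015688 had 10.1, 11.8 and 8.95 CPM in male carcass and 29.4, 31.5 and 32.3 CPM in female carcass, with 35.7 and 33.9 CPM in testis and 20.1, 22.7 and 18.5 CPM in ovary. TC013912 had 15.3, 9.28 and 10.1 CPM in male carcass and 21.6, 26.5 and 24.4 CPM in female carcass, with 39.5 and 39.9 CPM in testis. TC008029 had 39.7, 20.8 and 24.6 CPM in male carcass and 50.6, 79.6 and 70.5 CPM in female carcass, TC033400 had 17.5, 8.45 and 13.7 CPM in male carcass and 29.3, 28.1 and 27.0 CPM in female carcass, and TC000399 had 5.31, 4.28 and 4.76 CPM in male carcass and 10.6, 9.09 and 12.3 CPM in female carcass. TC033400 and TC000399 were under 1 CPM in every ovary library. Of the 8 genes, 6 had their highest group mean in female carcass, 1 in testis and 1 in embryos of 0-5 hr.

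**Figure D5:**
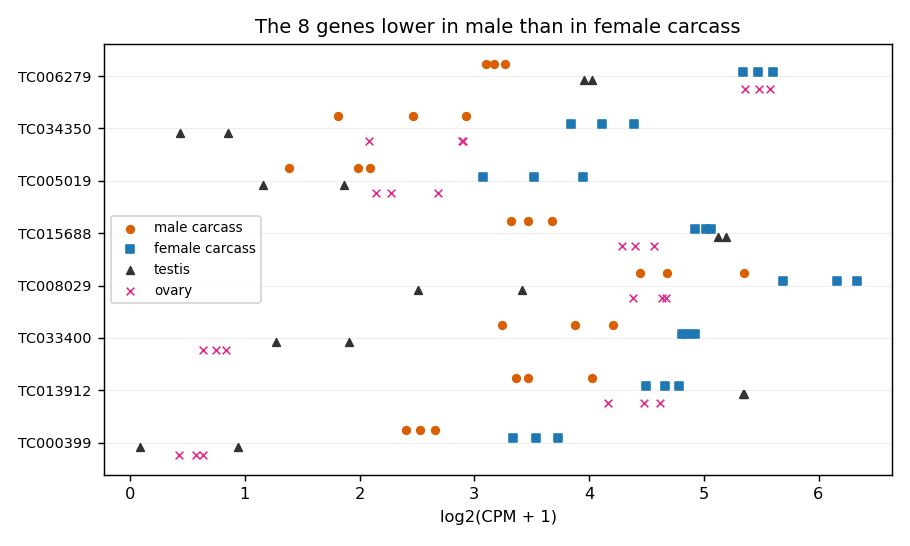
Level of the 8 genes lower in male than in female carcass on the log2(CPM + 1) scale, a symbol for each library of male carcass, female carcass, testis and ovary. The 3 male carcass values of each gene lie below its 3 female carcass values, and testis lies above male carcass in TC006279, TC015688 and TC013912.

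The number of lower genes depended on single libraries and on the test. It became 64 without S10 and 15 without S7, and 37 with edgeR's likelihood ratio test on recovered reads, 33 with DESeq2 and 75 with the testis share taken off. All 8 genes were still called without S10, and 6 of them were without S7. Of the 8, 4 were still called without S11, 4 without S12, 5 without S8 and 5 without S9. By edgeR's quasi-likelihood test 6 were called, and 7 each by its likelihood ratio test and DESeq2. With library totals 4 were called, and with only the carcass libraries 2. TC000399 lost its call by each of these tests and in both of these settings. TC033400 lost it by the quasi-likelihood test and in both settings. All 8 were still called with the testis share taken off. That step takes a larger part of the testis mean off male than off female libraries, so it tends to widen differences of this direction. The 8 calls kept and the count of 75 describe the subtraction and test nothing. At an unadjusted p under 0.05, 2103 genes were lower and 1004 higher in males at any size of difference, and the scaling decides the direction of small differences as given above.

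Genes the study names from ovary were not called between the carcasses, and 2 of the 3 had lower levels in ovary than in either carcass. The homolog of fly quail (TC013108), needed in *Drosophila* for the transport from nurse cells to the oocyte, had 42.5, 37.1 and 36.8 CPM in male carcass and 58.8, 67.7 and 54.8 CPM in female carcass (log2 difference -0.62, standard error 0.15, adjusted p = 0.0149, limma), with 27.6, 28.4 and 28.1 CPM in ovary. The homolog of fly loco (TC009818) had 165.5, 128 and 145 CPM in male carcass and 184, 221.5 and 186 CPM in female carcass (-0.43, adjusted p = 0.0766, limma), with 82.0, 98.6 and 88.8 CPM in ovary. The sexes did not overlap in these genes, as in 25.5% of all genes in this direction. The homolog of fly meiosis arrest female protein 1 (TC034053) had 35.1, 30.5 and 32.0 CPM in male carcass and 81.3, 35.6 and 37.9 CPM in female carcass, with S7 on top, the library with the highest median percent of the ovary markers.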

How the data were processed

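Poly(A) RNA was sequenced as unpaired 75-nt reads. The authors aligned them with HISAT2 2.0.5, took read counts of gene models from BEDTools and deposited TMM normalized CPM, a signal whose sum differs between libraries. Dividing by the value of 1 read gave whole reads, within 0.01 read, for 100% of 209134 values. The main test was limma 3.58.1 (trend and robust, R 4.3.3) on log2(CPM + 1), since the deposited values are normalized. It was fitted to all 17 libraries with 6 group means. Alternatives were edgeR 4.0.16 and DESeq2 1.42.0 on recovered reads. DESeq2 left 31 genes without an adjusted p. For TC002660 and TC032182, named above, there is no DESeq2 result. The script was tested on simulated data. The p-values rest on the spread between libraries within all 6 groups, the embryo, testis and ovary libraries included. Only the adult libraries are pools of 30 beetles each. Named are all lower genes, the 10 largest differences in each higher group with non-overlapping sexes, and the 22 genes the study names. Members and lists were chosen with earlier results of these data known. Only 1 of 12282 TC identifiers matched the reference table, so no sequences are given. There were 7 models with no TC identifier and 13 identifiers on 2 models each. Further alternatives were RLE factors, library totals, pseudocounts of 0.1 and 5, other filters, only the carcass libraries, other thresholds and other rules of the split. Each carcass and testis library was also left out in turn, and the testis share was taken off. Leaving out ovary library S13, and taking the testis share off for 2 of the counts and the named genes, were chosen after seeing the data.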

Additional observations from a re-analysis of the deposited data

Results flagged for a closer look

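For 13 of 28 genes examined, the difference between male and female carcass differed from that between testis and ovary by the test of the difference itself (limma, adjusted over all 12152 genes, of which 34.1% were called). The values are log2 of the carcass difference minus the gonad difference. Genes higher in male carcass than in both female carcass and testis made up 9 of the 13, and since they were chosen on contrasts that share the male libraries with this test, their values are a description. TC010151 had 6.50 (standard error 0.37, adjusted p = 9.98e-09, limma), TC008611 6.08 (0.31, adjusted p = 6.07e-09), TC014982 6.05 (0.37, adjusted p = 1.48e-08) and TC015700 5.12 (0.23, adjusted p = 2.95e-09). TC032756 had 3.50 (adjusted p = 2.04e-05), TC034086 3.48 (adjusted p = 2.85e-07), TC008505 3.06 (adjusted p = 0.00270), TC008610 2.97 (adjusted p = 1.72e-07) and TC031618 1.16 (adjusted p = 0.00286). Of the genes in which S11 led, TC033969 had 3.88 (standard error 1.10, adjusted p = 0.00854). Among the lower genes, TC015688 had -2.26 (0.23, adjusted p = 1.05e-06), TC013912 -1.95 (0.25, adjusted p = 9.90e-06) and TC033400 -1.94 (0.33, adjusted p = 1.73e-04), each lower in male than in female carcass and with a positive testis minus ovary difference of 0.74, 0.93 and 0.85.

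A signal outside the carcass comparison stood in ovary library S13. The 93 genes higher in male carcass and called in neither direction against testis had a median of 17.8 CPM there, against 1.21 and 1.67 CPM in S14 and S15. Of the 80 genes over 5 CPM and over 3 times above both other ovary libraries in S13, 53 belong to these 93.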

How the results depend on the processing

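The 623 higher genes ran from 563 to 685 with 1 library left out, and became 321 with only the carcass libraries fitted and 155 with the testis share taken off. The higher genes that are higher in testis (515) ran from 467 to 568, and became 274 and 53 under the same settings. Those not higher in testis (108) ran from 82 to 117, and became 47 with only the carcass libraries and 40 when split on testis over ovary. Genes higher than both female carcass and testis (15) ran from 10 to 25, with 25 without S17, and became 9 with only the carcass libraries, 7 at a log2 threshold of 2, 26 at an adjusted p of 0.05 and 23 without S13. The 8 lower genes ran from 6 to 64 (64 without S10, 15 without S7), and became 37 with edgeR's likelihood ratio test, 33 with DESeq2, 4 with library totals, 2 with only the carcass libraries, 1 at a log2 threshold of 2, 32 at an adjusted p of 0.05 and 75 with the testis share taken off. The count of 9112 genes with an interval inside 2-fold stayed within 1.5 times under each alternative run. The fit of the carcass libraries has fewer samples to estimate the spread; other causes were not tested. Called genes named here kept their direction and call in 848 of 900 values, lost the call in 51 and changed sign in 1, TC002055 (2.38), which had -0.597 with the testis share taken off. Among uncalled genes 21 of 395 values changed sign. TC034766 (0.00491) had -0.0499 with both edgeR tests, -0.0282 with DESeq2, -0.0421 with the testis share taken off and -0.137 to 0.277 with a library left out. TC001383 (0.0874) had -0.113 and -0.114 with edgeR, -0.0769 with DESeq2, -1.32 with the testis share taken off (adjusted p = 0.0333, limma) and -0.185 to 0.599 with a library left out. TC003185 (-0.0127) had 0.0102 with DESeq2, 0.0134 with RLE factors, 0.139 with library totals and -0.0454 to 0.0113 with a library left out. TC010829 (0.156) had -0.00096 to 0.304 with a library left out. No paired analysis was possible because libraries carry numbers that no other group shares. Under 0.163 CPM, or 3 reads, levels in female carcass cannot be told from 0.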

Other observations

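The largest falls in male carcass that were not called rested on uneven libraries, and the genes below were picked after their values were seen. TC010839 had 2.04, 2.74 and 5.99 CPM in S10, S11 and S12, against 678, 21.7 and 78.8 CPM in S7, S8 and S9 (log2 difference -4.64, adjusted p = 0.0230, limma), and 253.5 CPM in ovary library S14, against 11.5 and 6.21 CPM in S13 and S15. TC013602 had 4.48, 2.44 and 3.33 CPM in male carcass and 655, 13.5 and 71.0 CPM in female carcass, with 394 CPM in S14. In both genes the sexes did not overlap, and S7 and S14 stood far above the other libraries of their groups. Genes of high level in ovary followed another course. TC015344 had 10.1, 9.82 and 6.40 CPM in male carcass and 139, 229 and 14.6 CPM in female carcass, with 2607, 1718 and 3194 CPM in ovary, so S9 lay nearer to the males than to S7 and S8.

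S11 also lacked transcripts that the other male libraries held. TC013765 had 198, 1.43 and 199 CPM in S10, S11 and S12, against 202, 226 and 207 CPM in S7, S8 and S9. TC003109 had 235, 0.952 and 127 CPM in male carcass and 139, 311 and 128 CPM in female carcass. Over all genes, 52 were in S11 over 3 times below both S10 and S12, with those at 5 CPM or more, and 191 were over 3 times above both at 5 CPM or more, of which 87 were called higher in males.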
